A study of Rattus norvegicus with 39 samples.

Results

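Calorie restriction (CR) and lipoic acid supplementation were set directly against each other in the cerebral cortex of rats killed at 12 months of age. Each diet was represented by 3 libraries, so that 6 of the 39 libraries of the series entered the comparison. They were taken by their labels, 12 months calorie restriction and 12 months ad libitum plus lipoic acid. The comparison itself was chosen with earlier results of these data known. All animals were male BN rats (SubstrainBN/SsNOlaHSD) that ate the CRM diet ad libitum (AL) until 2 months of age and were then housed singly. From that age, CR rats received 55% of the control intake as a daily weighed ration of CRM without lipoic acid. AL+LA rats ate freely from CRM to which racemic α-lipoic acid had been added at 1.5 g/kg. The groups therefore differed in both restriction and supplement, and a difference between them cannot be assigned to either. Each library pooled cortical RNA of 2 rats, so p-values describe the spread between pools and not between single animals, and in bulk tissue fewer cells of a type cannot be told apart from less RNA per cell.

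CR extends lifespan in rodents and shifts fuel use from glucose towards fat and ketone bodies. Lipoic acid is the cofactor that, bound to protein as lipoyl groups, carries intermediates through pyruvate dehydrogenase and the related mitochondrial complexes, and the free molecule takes part in thiol redox chemistry. Genes that respond to cold, oxygen transport, the respiratory chain, antioxidant enzymes and the clock were followed beside the transcriptome as a whole. They were chosen with earlier results of these data known.

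The libraries held 3230145 to 4078398 reads on genes in CR and 3257510 to 5214247 in AL+LA. Reads that did not align made up 41.1 to 43.2% of the CR libraries and 39.3 to 41.0% of the AL+LA libraries (exact permutation test, two-sided, p = 0.1, the smallest that 3 against 3 pools can give). Replicate pools differed from each other by more than counting error, so no library was counted as a duplicate. Of 12 listed markers of excitatory cortical neurons, only Neurod6, Nrgn and Fezf2 have a name. They summed to 158 to 271 CPM (a read count set relative to the size of its library, scaled between libraries by TMM) in CR and 251 to 258 CPM in AL+LA. Ensembl identifiers were paired with names for 1669 genes only, all taken from tables of genes the study had picked from these same libraries, and 9 of the genes that passed the test below have a name.

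Of 17230 genes tested, 44 differed between CR and AL+LA at an adjusted p under 0.05 (edgeR quasi-likelihood test with Benjamini-Hochberg adjustment), which is 0.255% of the genes. Only 4 of them were higher in CR (0.0232%) and 40 were lower (0.232%). Of the 40 lower genes, 26 followed the 28S ribosomal RNA gene Rn28s across the other 33 libraries of the series, with a Pearson r of at least 0.8 on log2 CPM. These 26 include Rn28s itself and are all the genes tested that reached that r (0.151% of 17230). The 18 remaining genes held 4 that were higher in CR, among them the cold-inducible RNA-binding protein gene Rbm3, and 14 that were lower, among them both named α-globin genes, Ftl, Chchd10, Ndufa13, Tgm2 and Asrgl1. At an unadjusted p under 0.05, 1112 genes differed (6.45%) and the directions were closer to balance, with 472 genes higher (2.74%) and 640 lower (3.71%) in CR, and the median log2 fold change of all genes tested was 0.00. Log2 fold changes are given throughout as CR minus AL+LA.

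Rbm3 was the only named gene higher in CR that passed the test. Its product binds RNA, is induced by mild cooling and helps to maintain translation and synapses in cooled brain. The 3 CR pools gave 102, 111 and 82.5 CPM and the 3 AL+LA pools 60.7, 56.0 and 41.0 CPM, so every CR pool lay above every AL+LA pool. The mean was 98.4 ± 14.6 CPM (SD, n = 3) in CR against 52.6 ± 10.2 CPM (n = 3) in AL+LA, a 1.87-fold difference with a log2 fold change of 0.90 ± 0.15 (SE, adjusted p = 0.00254, edgeR). The call held in all 6 fits that left out 1 pool, with log2 fold changes of 0.76 to 1.02. Rats of the same age on plain AL diet had 44 ± 1.12 CPM (n = 3), and 1 of those AL libraries held only 494091 reads on genes.

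Cirbp, the other classical cold-inducible RNA-binding protein gene, did not separate the diets at 12 months. The CR pools had 27.9, 25.9 and 24.9 CPM and the AL+LA pools 26.8, 27.1 and 25 CPM, which overlap fully. The log2 fold change was -0.01, with a 95% interval of -0.37 to 0.35 (adjusted p = 1, edgeR). The 2 genes are shown here by the sequence around their start sites as the members of the cold-inducible list. Rbm3 and Cirbp were not tested against each other, and the part of these sequences in their levels was not tested. The windows run from 250 bases before to 50 bases after the start in RefSeq (GRCr8, chrX:17020655-17020954 on the plus strand for Rbm3 and chr7:10189426-10189725 on the minus strand for Cirbp), 5′ to 3′, with capitals marking exact matches on either strand to the mild-cold element TCCCCGCC, the GC box GGGCGG, the CCAAT box and the TATA box TATAAA.
Rbm3: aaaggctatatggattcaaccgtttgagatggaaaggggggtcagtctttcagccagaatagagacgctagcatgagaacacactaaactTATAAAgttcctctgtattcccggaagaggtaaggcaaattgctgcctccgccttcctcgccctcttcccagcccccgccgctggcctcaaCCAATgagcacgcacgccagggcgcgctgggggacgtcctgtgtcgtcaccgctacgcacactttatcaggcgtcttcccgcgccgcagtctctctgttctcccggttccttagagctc
Cirbp: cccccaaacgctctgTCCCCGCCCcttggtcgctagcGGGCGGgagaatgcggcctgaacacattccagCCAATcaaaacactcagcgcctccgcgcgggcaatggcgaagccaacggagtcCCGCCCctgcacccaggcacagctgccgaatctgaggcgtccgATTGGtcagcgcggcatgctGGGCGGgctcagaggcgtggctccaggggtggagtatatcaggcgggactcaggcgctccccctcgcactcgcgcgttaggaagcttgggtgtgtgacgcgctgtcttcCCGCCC
The Rbm3 window held 1 CCAAT box, 69 bases upstream of the start, and 1 TATA box, 160 bases upstream, and neither of the GC-rich motifs. The Cirbp window held the mild-cold element 235 bases upstream, overlapping 1 of its 5 GC boxes, and 2 CCAAT boxes. Among 33469 RefSeq windows of the same length, the mild-cold element was present in 4.79%, the GC box in 33.1%, the CCAAT box in 37.5% and the TATA box in 14.2%. A match describes the letters and not a bound site.

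**Figure D1:**
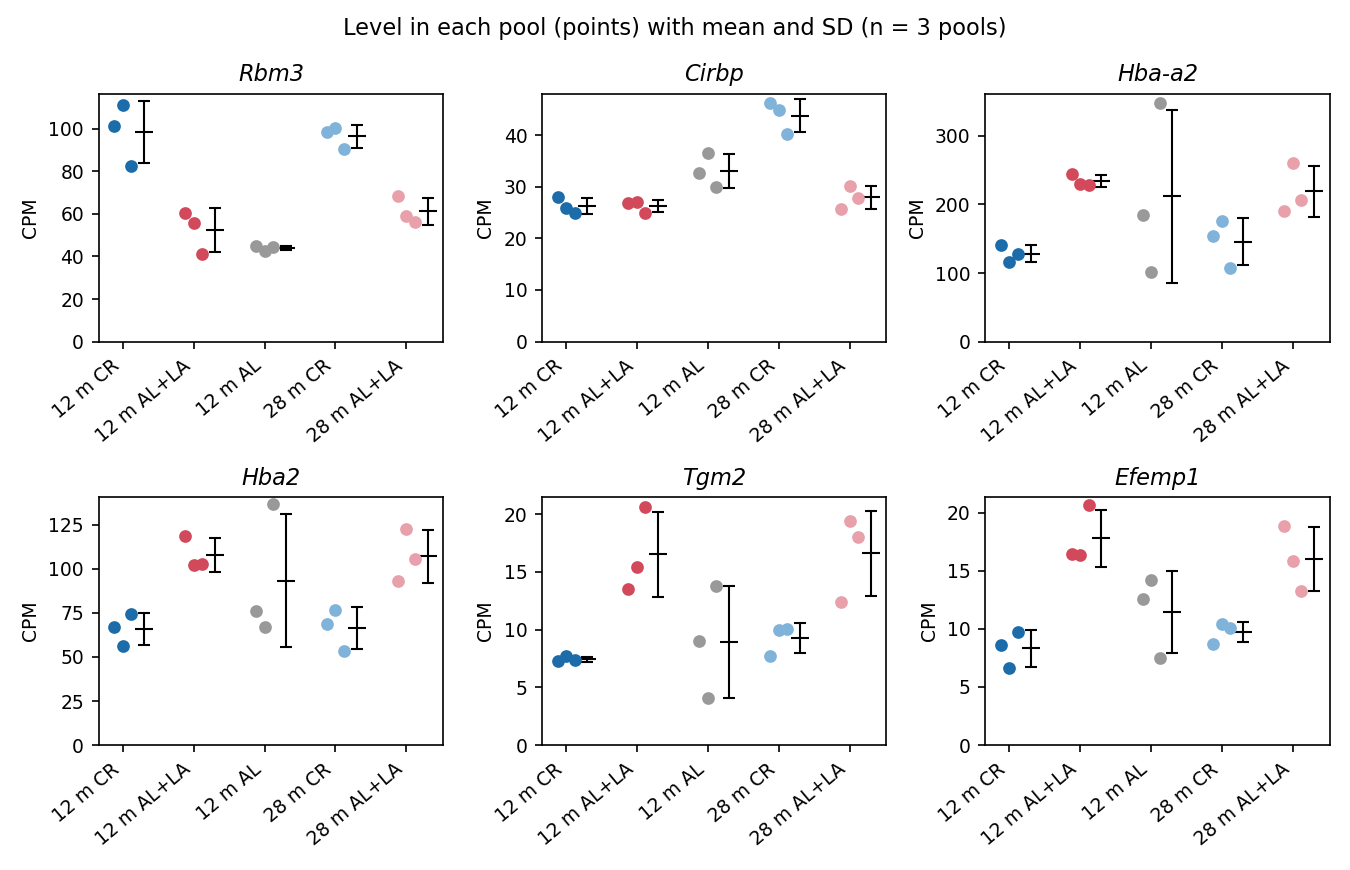
CPM of 6 genes in each pool (points), with the mean and SD of 3 pools (bars), for 12 m CR, 12 m AL+LA, 12 m AL, 28 m CR and 28 m AL+LA. For Rbm3, Hba-a2, Hba2, Tgm2 and Efemp1 the CR pools lay apart from the AL+LA pools at both ages, and for Cirbp only at 28 months.

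In the opposite direction, both named α-globin genes were lower in CR. α-globin is the chain that pairs with β-globin in the haemoglobin of red cells and is also transcribed in some neurons. Hba-a2 was at 142, 116 and 127 CPM in the CR pools and at 244, 230 and 229 CPM in the AL+LA pools, with no overlap. It was 1.83-fold higher in AL+LA than in CR (log2 fold change -0.87 ± 0.12 SE, adjusted p = 0.000132, edgeR). Hba2 was at 67.0, 56.3 and 74.2 CPM in CR and 119, 102 and 103 CPM in AL+LA (log2 fold change -0.71 ± 0.13 SE, adjusted p = 0.0098). Both identifiers carry the description of the same subunit, and reads mapping to more than 1 place were dropped, which leaves their separate levels uncertain. The call for Hba2 was lost without CR pool 14 (adjusted p = 0.0901) or AL+LA pool 37 (adjusted p = 0.0904), whereas that for Hba-a2 held in all 6 such fits. Fitting all 13 groups of the series together gave adjusted p-values of 0.625 for Hba-a2 and 0.736 for Hba2, and in that fit Rbm3 and Ftl were the only named calls left beside Rn28s.

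Of 11 blood markers listed, 2 entries could be matched to 3 identifiers. Their summed level was 182 to 215 CPM in CR and 338 to 371 CPM in AL+LA, and nearly all of it was α-globin. The third, Ptprc, the leukocyte surface phosphatase CD45, had a log2 fold change of -0.03. The plasma protein gene Alb, at -0.03, spanned 11.6 to 164 CPM in CR and 12.3 to 275 CPM in AL+LA. How much of the globin difference lay in blood left in the vessels was not tested. Plain AL pools of the same age spanned 102 to 349 CPM for Hba-a2, and the low value came from the library of 494091 reads. The other AL pools, at 185 and 349 CPM, lay above every CR pool of that age. At 28 months the order was the reverse. Plain AL pools then had 57.7, 52.2 and 77.1 CPM of Hba-a2 and 19.4, 27.3 and 27.1 CPM of Hba2. For both genes these lay below every 28 m CR pool.

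The 5 other named genes lower in CR belong to iron storage, mitochondria and protein modification. Ftl encodes the light chain of ferritin, the iron store of the cell, and had 13.4, 14.9 and 5.69 CPM in CR against 27.8, 44.9 and 39.3 CPM in AL+LA, a 3.32-fold higher level in AL+LA (log2 fold change -1.73 ± 0.26 SE, adjusted p = 0.000418, edgeR). Chchd10, a mitochondrial intermembrane-space protein gene, had 45.2, 43.7 and 29.1 CPM in CR against 59.4, 81.3 and 79.2 CPM in AL+LA (log2 fold change -0.91 ± 0.17 SE, adjusted p = 0.00867). Ndufa13, a subunit of complex I, had 6.70, 5.93 and 3.08 CPM against 17.8, 11.1 and 13.5 CPM (log2 fold change -1.42 ± 0.31 SE, adjusted p = 0.0479). In each of the 3 genes the CR pools lay below all AL+LA pools. Plain AL pools at 12 months had means of 11.8 ± 3.55 CPM for Ftl, 39.3 ± 19.1 CPM for Chchd10 and 3.62 ± 1.40 CPM for Ndufa13 (SD, n = 3).

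Tgm2, the calcium-dependent transglutaminase that crosslinks proteins, was at 7.26, 7.69 and 7.35 CPM in CR and 13.6, 15.4 and 20.7 CPM in AL+LA (log2 fold change -1.15 ± 0.25 SE, adjusted p = 0.0482, edgeR). Asrgl1, an asparaginase that also removes isoaspartyl ends from peptides, was at 46.9, 40.9 and 31.5 CPM in CR and 71.6, 59.9 and 64.6 CPM in AL+LA (log2 fold change -0.72 ± 0.16 SE, adjusted p = 0.0482). These calls sat at the threshold. Leaving out single pools kept the Ftl call in 6 of 6 fits and the Chchd10 call in 4, with the exceptions of CR pool 15 (adjusted p = 0.074) and AL+LA pool 38 (adjusted p = 0.0788). Ndufa13 lost its call without CR pools 14 and 15 (adjusted p = 0.105 and 0.27) and AL+LA pools 37 and 39 (adjusted p = 0.25 and 0.0902). Tgm2 lost it without CR pools 13, 14 and 15 (adjusted p = 0.13, 0.126 and 0.156) and AL+LA pools 38 and 39 (adjusted p = 0.12 and 0.354). Asrgl1 lost it without CR pools 14 and 15 (adjusted p = 0.112 and 0.351) and AL+LA pools 37, 38 and 39 (adjusted p = 0.233, 0.068 and 0.144).

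Named genes that came next without passing the test included Efemp1, an extracellular fibulin, with 8.65, 6.59 and 9.72 CPM in CR and 16.5, 16.4 and 20.7 CPM in AL+LA (log2 fold change -1.10 ± 0.24 SE, adjusted p = 0.0514, edgeR). Taf15, an RNA-binding protein of the FET family, had a log2 fold change of -1.21 (adjusted p = 0.0538), Ccdc47, a component of the endoplasmic reticulum, of -0.59 (adjusted p = 0.0695) and Rps26 of -0.73 (adjusted p = 0.0771). In the other direction Runx2, the osteoblast transcription factor, was at 17.3, 14.9 and 19 CPM in CR and 10.3, 5.66 and 7.46 CPM in AL+LA (log2 fold change 1.16 ± 0.26 SE, adjusted p = 0.0586). The remaining 10 named genes with non-overlapping pools and the smallest p in that direction were Aldoa, Mthfd1l, Bag6, Per3, Wdr6, Smurf1, Ckb, Cox7a2l2, Rora and Atp13a2, with adjusted p of 0.274 to 0.503. They included the energy-metabolism genes Aldoa (glycolytic aldolase, 333 against 242 CPM), Ckb (brain creatine kinase, 500.2 against 373 CPM) and Cox7a2l2 (described as cytochrome c oxidase subunit 7A2, 531 against 414 CPM). Over all genes tested, the pools did not overlap in 5.65% with CR higher and 5.88% with CR lower.

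Among called genes without a name and not following Rn28s, 3 were higher and 7 lower in CR. ENSRNOG00000047746, an uncharacterized protein-coding gene, was at 3581, 4776 and 3233 CPM in CR and 2371, 1996 and 2407 CPM in AL+LA (log2 fold change 0.77, adjusted p = 0.0019, edgeR), and at 15339 CPM on average in 12 m AL. ENSRNOG00000043103 was at 51.6, 46.2 and 49.3 CPM in CR and 28.4, 31.4 and 27.8 CPM in AL+LA (log2 fold change 0.74, adjusted p = 0.0329). The lower genes with the smallest p were ENSRNOG00000047098 (38, 40.7 and 44.3 CPM against 97.1, 96.3 and 115 CPM, log2 fold change -1.33) and ENSRNOG00000048955 (72.9, 84.2 and 88.4 CPM against 178, 150 and 168 CPM, log2 fold change -1.01). Groups did not overlap in any of these 4. The call for ENSRNOG00000043103 was lost in each of the 6 fits without 1 pool (adjusted p = 0.0578 to 0.179), and those for the other 3 held in all 6.

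The 7 genes with the lowest p-values were Rn28s and 6 of its followers. Rn28s was at 4320, 3124 and 3016 CPM in CR and 28903, 21620 and 35650 CPM in AL+LA, an 8.25-fold higher level in AL+LA (log2 fold change -3.04 ± 0.16 SE, adjusted p = 1.69e-12, edgeR). Ribosomal RNA had been depleted before sequencing. Of the 26 followers, 23 carry the biotype miRNA in the annotation, Rn28s included, and the other 3 are protein-coding without a name. Several had near-equal levels, within 10% of each other in each of the 6 libraries: 3 identifiers with Rn28s, 4 at 901 to 10859 CPM, 6 at 1611 to 3743 CPM and 3 at 91.9 to 454 CPM. They are therefore fewer than 26 independent observations. Together they took 6.78 ± 1.58% of reads on genes in CR and 19.7 ± 2.56% in AL+LA (SD, n = 3; exact permutation test, two-sided, p = 0.1, the smallest possible).

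**Figure D2:**
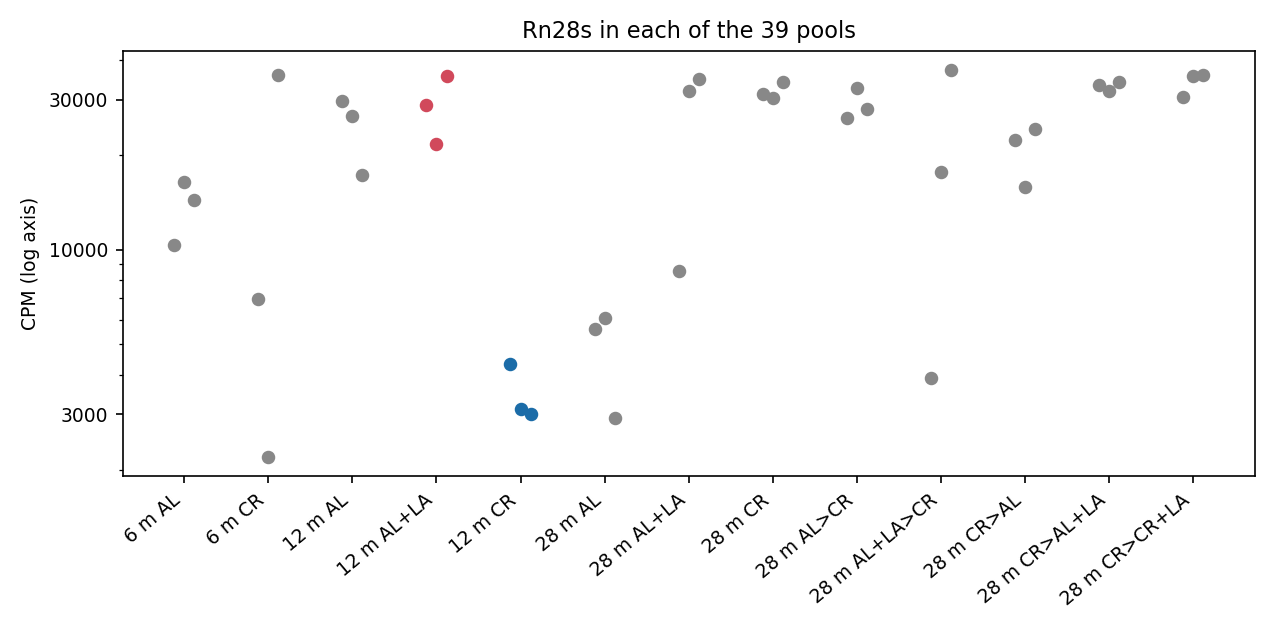
CPM of Rn28s on a log axis in each of the 39 pools by group, with 12 m CR in blue and 12 m AL+LA in red. The 3 CR pools at 12 months lay at 3016 to 4320 CPM and the AL+LA pools at 21620 to 35650 CPM, while the 3 pools of 6 m CR alone spanned 2199 to 36000 CPM.

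At 28 months the means of Rn28s were 31925 ± 1850 CPM in CR and 25118 ± 14429 CPM in AL+LA (SD, n = 3), with overlapping pools. Some of the other called genes moved with it: over the 33 other libraries Pearson r with Rn28s was 0.75 for Ftl, 0.71 for Asrgl1, 0.66 for Chchd10, 0.45 for Hba-a2, 0.44 for Hba2, 0.43 for Ndufa13, -0.02 for Tgm2 and -0.22 for Rbm3, as a description over libraries that share sequencing and depletion. In a fit over all 13 groups without a covariate, 10 genes passed the test. With log2 CPM of Rn28s added to that fit as a covariate, chosen after seeing the data, no gene passed, and 530 had an unadjusted p under 0.05. The log2 fold change was then 0.67 for Rbm3, -1.07 for Hba-a2, -1.0 for Hba2, -0.74 for Tgm2, -0.50 for Ftl, -0.14 for Chchd10, -0.05 for Asrgl1 and 0.13 for Ndufa13. The part of residual ribosomal RNA in these differences was not tested further. With the followers and 13 further ribosomal or mitochondrial identifiers left out of counts and library sizes, 9 genes passed, and Rbm3 (0.90, adjusted p = 0.00899), Hba-a2 (adjusted p = 0.000372), Hba2 (adjusted p = 0.0326), Ftl (adjusted p = 0.00103) and Chchd10 (adjusted p = 0.0267) were among them.

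The same diets were available at 28 months in 3 pools each, from other rats. At that age 0 of 17230 genes passed the test (0%, edgeR with Benjamini-Hochberg adjustment), 2 passed with DESeq2, and 648 had an unadjusted p under 0.05 (3.76%), 324 in each direction (1.88% each). The pools did not overlap in 4.29% of genes with CR higher and 4.68% with CR lower. Of the 18 genes called at 12 months that did not follow Rn28s, 12 had the same sign at 28 months. The share over all genes tested was not computed, so no agreement between the ages is read from this count. At an unadjusted p under 0.05, 6 of the 18 had the same sign and 0 the opposite, while among the 26 followers 0 had the same sign and 6 the opposite. The 33 libraries that set the followers include those of 28 months. The split into 18 and 26 was therefore not independent of the 28-month values, and no agreement is read from these counts either. The 6 with the same sign were Rbm3, Hba-a2, Hba2, Tgm2, ENSRNOG00000047098 and ENSRNOG00000048955.

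Rbm3 at 28 months was at 98.4, 101 and 90.5 CPM in CR and 68.5, 58.9 and 56.3 CPM in AL+LA (log2 fold change 0.65 ± 0.12 SE, adjusted p = 0.244, edgeR), again without overlap. Cirbp, which had not differed at 12 months, was at 46.3, 44.8 and 40.2 CPM in 28 m CR and 25.7, 30.1 and 27.9 CPM in 28 m AL+LA. The change in its log2 difference between the ages was 0.66 and did not pass the interaction test (adjusted p = 0.875). Hba-a2 was at 154, 175 and 108 CPM in CR and 190, 261 and 206 CPM in AL+LA, and Hba2 at 68.8, 76.8 and 53.4 CPM and 92.9, 123 and 106 CPM. Tgm2 was at 7.75, 9.94 and 10.1 CPM in CR against 12.4, 19.4 and 18 CPM in AL+LA, and Efemp1 at 8.72, 10.4 and 10.1 CPM against 18.8, 15.9 and 13.3 CPM. None of these passed the adjusted threshold at 28 months, and in each the pools of the 2 diets lay apart. Ftl, by contrast, was at 17, 34.7 and 25.3 CPM in CR and 17.7, 41.6 and 37.5 CPM in AL+LA, with overlap.

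**Figure D3:**
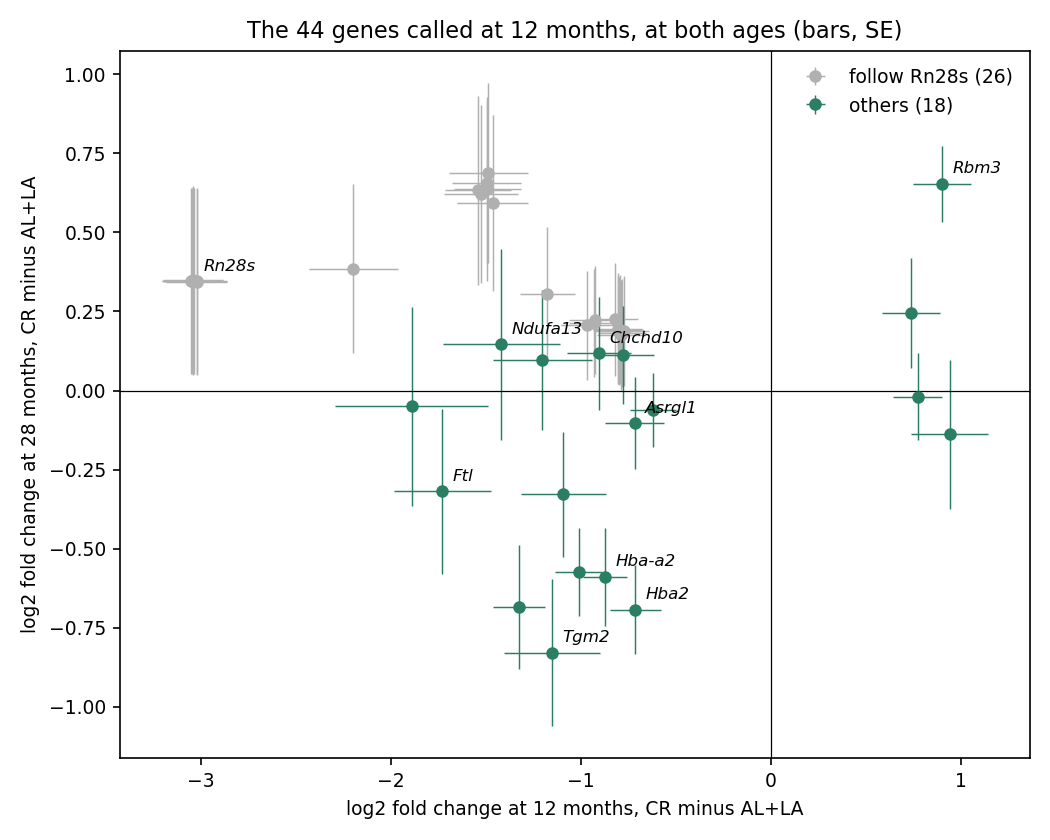
Log2 fold change, CR minus AL+LA, of the 44 genes called at 12 months (horizontal axis) against the same contrast at 28 months (vertical axis), with SE bars. The 26 genes following Rn28s (grey) lay below 0 at 12 months and above 0 at 28 months. Of the 18 others (green) 12 had the same sign at both ages, a count without a share over all genes beside it.

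The CR minus AL+LA difference was compared between the ages over 12 libraries. The interaction passed in 15 genes (0.0871%, edgeR), and all 15 were Rn28s or its followers. At an unadjusted p under 0.05 it was found in 799 genes (4.64%). For Rn28s the CR minus AL+LA difference changed by 3.39 ± 0.41 (log2, SE) from 12 to 28 months. For the 18 other called genes none passed, and the change was -0.25 ± 0.20 for Rbm3, 0.28 ± 0.20 for Hba-a2, 0.02 ± 0.20 for Hba2 and 0.32 ± 0.33 for Tgm2. Larger changes with an unadjusted p under 0.05 were seen for Ftl (1.41 ± 0.43), Chchd10 (1.02 ± 0.27), Ndufa13 (1.56 ± 0.46) and Asrgl1 (0.61 ± 0.22). All these genes had been chosen for their difference in the 12-month libraries of the same fit. That choice favours a smaller difference at 28 months, so these p-values are not those of genes picked beforehand.

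Gene lists were described by their members that have a name. The background among the 1669 named genes was 62 higher in CR (3.71%) and 156 lower (9.35%) at an unadjusted p under 0.05, with a median log2 fold change of -0.04. Of 8 clock genes, 6 were higher in CR at an unadjusted p under 0.05 and 0 lower, and none passed the adjusted threshold. They were Per3 (32.9, 27 and 27 CPM in CR against 16.8, 19.5 and 20.4 CPM in AL+LA, log2 fold change 0.61), a period repressor, the nuclear receptor gene Rora (0.57), the output transcription factor genes Hlf (0.69) and Dbp (0.36), the repressor gene Bhlhe40 (0.31) and the cryptochrome gene Cry2 (0.29). The pools did not overlap in any of the 6, which choosing genes by a small p favours. Over all genes tested, pools did not overlap in 5.65% with CR higher. Nr1d1 and Bhlhe41 were at -0.13 and -0.01. The list median was 0.34, and 0.27 to 0.44 with single pools left out. At 28 months the median was 0.16, and Dbp alone had an unadjusted p under 0.05 in the same direction (log2 fold change 0.47). CR rats received their ration at a set time of day and AL+LA rats ate at will, and the hour of death is not given in the sources used here.

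Markers of other brain regions were examined in the same way, since a dissected cortex can carry neighbouring tissue. Of 7 thalamic markers, 3 were higher in CR at an unadjusted p under 0.05 (42.9%, against 3.71% of named genes), among them Rora, which is also a clock gene. CR pool 15 was the high one: Slc17a6, the thalamic vesicular glutamate transporter, was at 8.65, 29.2 and 107 CPM in CR and 34.5, 20.7 and 21.8 CPM in AL+LA. The median over the 7 was 0.57, and -0.24 without CR pool 15. The part of thalamic tissue in the level of Rora was not tested. Summed thalamic markers reached 139 to 322 CPM in CR and 129 to 172 CPM in AL+LA. Of 9 cerebellar and 3 striatal markers 0 had an unadjusted p under 0.05, and 1 of 3 hippocampal and 1 of 2 olfactory markers (against 9.35% of named genes) was lower in CR at that level. With 1 pool left out, their medians ran from -0.17 (without AL+LA pool 39) to 0.08 for cerebellum, 0.01 (without CR pool 14) to 0.22 for striatum, -0.78 (without CR pool 15) to -0.06 (without CR pool 13) for hippocampus and -0.38 (without CR pool 15) to -0.14 (without AL+LA pool 38) for olfactory bulb.

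Most nuclear genes of the respiratory chain had log2 fold changes below 0. This held for 32 of 38 identifiers (84.2%), against 49.3% of all genes tested and 57.2% of named genes. At an unadjusted p under 0.05, 7 were lower (18.4%, against 9.35% of named genes) and 0 higher, and Ndufa13 alone passed. Cox7a2l2, whose symbol is not in the list, had a log2 fold change in the other direction (0.36, unadjusted p = 0.00551, edgeR). Atp5c1, the γ subunit of ATP synthase, was at 44.4, 63.5 and 57.1 CPM in CR and 86.5, 72.2 and 73.5 CPM in AL+LA (log2 fold change -0.48), without overlap. Ndufa1, Ndufa12 and Ndufb10 of complex I were at -0.56, -0.43 and -0.39, and Cox5b and Cox7b of cytochrome oxidase at -0.27 and -0.32. The list median was -0.17, but -0.03 without AL+LA pool 38, -0.33 without CR pool 14 and 0.16 at 28 months. Of 3 mitochondrially encoded genes, ATP8 had the smallest p (625, 515 and 683 CPM in CR against 1199, 649 and 1057 CPM in AL+LA, log2 fold change -0.67, adjusted p = 0.0838, edgeR), with overlap.

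Cytosolic ribosomal protein genes behaved similarly, with 45 of 59 identifiers below 0 (76.3%, against 57.2% of named genes). The median was -0.19 (-0.30 without CR pool 14 and -0.08 without AL+LA pool 38), and 0.06 at 28 months. At an unadjusted p under 0.05, 9 were lower (15.3%, against 9.35% of named genes) and 2 higher (3.39%, against 3.71%). None passed. The 2 higher identifiers are both named for the acidic stalk protein P1, Rplp1 and RPLP1 (0.65 and 0.35), while Rplp2, for its partner P2, was at -0.59, and many such genes have near-identical copies whose reads were not counted.

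**Figure D4:**
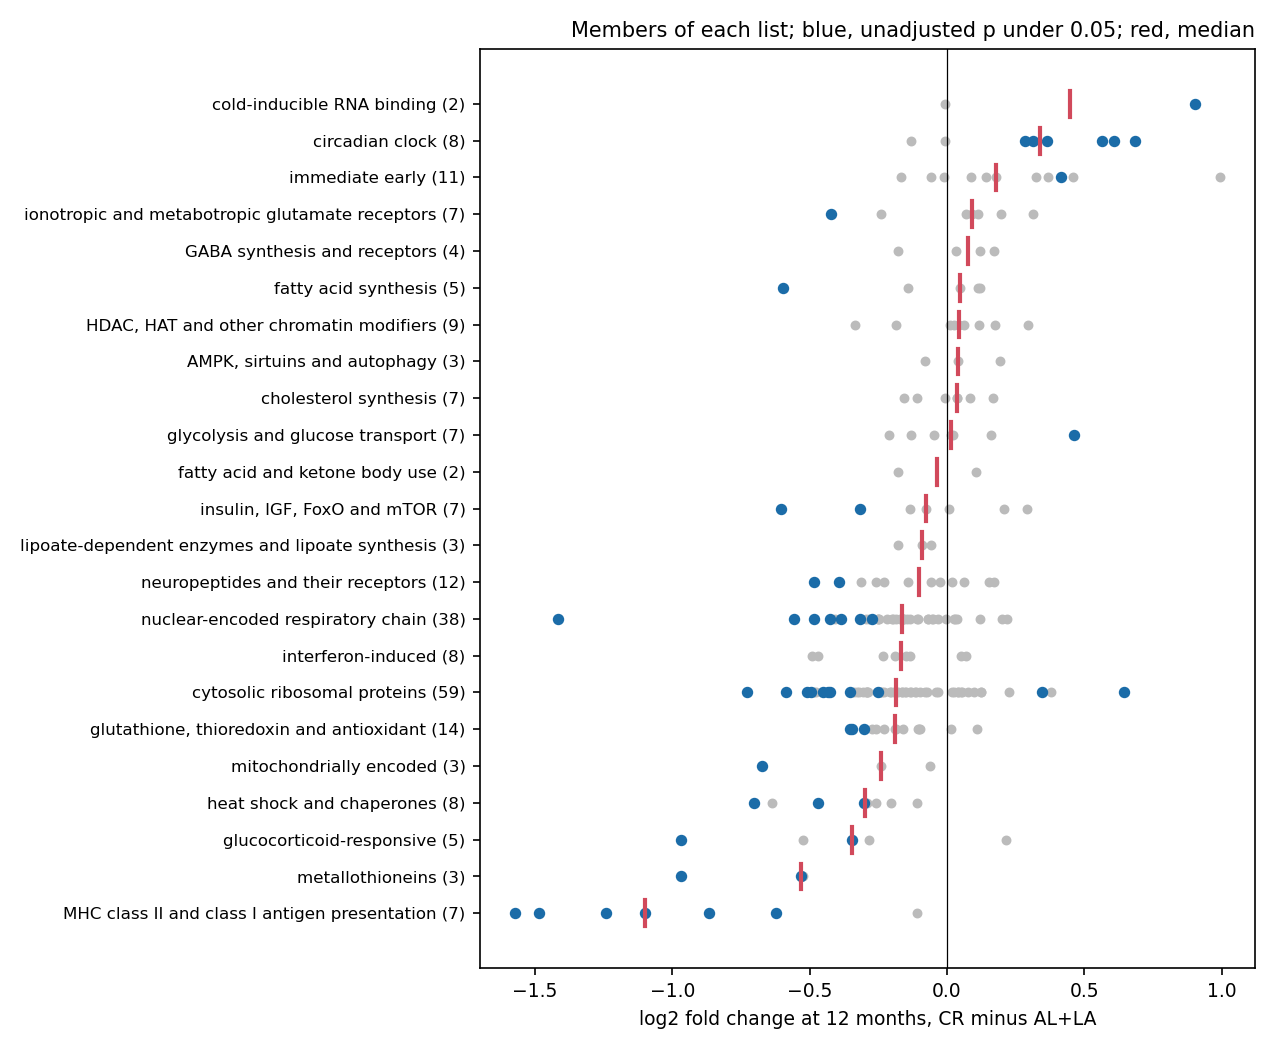
Log2 fold change at 12 months, CR minus AL+LA, of each member (points) of 23 gene lists with at least 2 identifiers tested (numbers in parentheses). Members with an unadjusted p under 0.05 are blue and red bars are list medians, with the clock list at 0.34 and the antigen presentation list at -1.10.

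For the pathways that lipoic acid serves directly, few genes could be read. The 3 named of 23 listed lipoate-related genes, Bckdk, Amt and Pdp1, had log2 fold changes of -0.18, -0.06 and -0.09, none with an unadjusted p under 0.05. Of 14 glutathione, thioredoxin and antioxidant genes, 12 were below 0 (85.7%, against 57.2% of named genes). At an unadjusted p under 0.05, 3 were lower in CR (21.4%, against 9.35% of named genes). These were Gstm1, a glutathione transferase (-0.30), Txnip, the thioredoxin inhibitor (-0.34), and Hmox2, the constitutive haem oxygenase (-0.35). Their adjusted p-values were 0.7 to 0.723 (edgeR), and the list median of -0.19 was -0.32 without CR pool 14 and -0.10 without AL+LA pool 38. At 28 months the list median was 0.08. Metallothioneins, which bind zinc and copper, were all below 0, with Mt2A at 15.6, 24.6 and 14.9 CPM in CR and 21.6, 37.8 and 48.5 CPM in AL+LA (log2 fold change -0.97, adjusted p = 0.131), Mt3 at -0.53 and MT1 at -0.52. Their median was -1.05 without CR pool 14 and -0.33 without CR pool 15. Of 5 glucocorticoid-responsive genes, Mt2A and Txnip were the pair with an unadjusted p under 0.05 (40%, against 9.35% of named genes lower in CR), and the median was -0.34. All 8 chaperone identifiers were below 0, 3 of them with an unadjusted p under 0.05 (37.5%, against 9.35% of named genes). They were led by Hsph1 (-0.47, adjusted p = 0.269) and Stip1 (-0.30). The chaperone median was -0.30, and -0.01 at 28 months.

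Among pathway lists with at least 2 identifiers, the median farthest from 0 belonged to antigen presentation genes, and it rested on 1 library. Of 7 genes, 6 were lower in CR at an unadjusted p under 0.05 (85.7%, against 9.35% of named genes) and none passed. Cd74, the invariant chain of MHC class II, was at 20.7, 16 and 29.6 CPM in CR and 12.3, 89.1 and 35.6 CPM in AL+LA, and the class II chain gene RT1-Bb at 6.42, 2.42 and 6.87 CPM and 1.94, 31.8 and 9.76 CPM. AL+LA pool 38 was the high one, while AL+LA pool 37 lay below all CR pools in both genes. The median log2 fold change was -1.10, and 0.14 without AL+LA pool 38. Of 8 interferon-induced genes none had an unadjusted p under 0.05, with Irgm at -0.49 and Ifi44 at -0.47. Of 7 microglial markers, Ctss alone had an unadjusted p under 0.05 (log2 fold change -0.39), and the list median of -0.09 turned from -0.22 without AL+LA pool 39 to 0.13 without CR pool 14.

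The astrocyte filament gene Gfap was at 246, 226 and 315 CPM in CR and 331, 439 and 372 CPM in AL+LA (log2 fold change -0.54 ± 0.13 SE, adjusted p = 0.115, edgeR). At 28 months it was at 390, 696 and 484 CPM in CR and 693, 632 and 862 CPM in AL+LA (log2 fold change -0.48), with overlap. Plain AL pools had 620, 578 and 701 CPM of Gfap at 12 months and 140, 203 and 171 CPM at 28 months. These are the libraries with the lower shares of unaligned reads given above, and their levels were not tested. The other 4 astrocyte markers ranged from -0.15 to 0.32, and their list median lay between -0.14 (without CR pool 15) and 0.14 (without CR pool 14). The medians of myelin, inhibitory neuron and excitatory neuron markers (-0.07, 0.06 and -0.12) each changed sign with single pools left out, to 0.02 without AL+LA pool 38, -0.10 without AL+LA pool 39 and 0.03 without CR pool 15. The 3 excitatory markers ran from -0.46 to 0.55, and 1 of them was lower in CR at an unadjusted p under 0.05.

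Growth and nutrient signalling, lipid and neurotransmission lists gave 0 genes past the threshold. In the insulin, IGF, FoxO and mTOR list, Rheb, the GTPase that activates mTOR complex 1, was at 43.8, 53.9 and 41.5 CPM in CR and 63.6, 73.5 and 74.1 CPM in AL+LA (log2 fold change -0.60, adjusted p = 0.109), and Igfbp7 was at -0.32. The fatty-acid carrier Fabp7 was at -0.60 and the monocarboxylate transporter gene Slc16a7 at 0.10. Of 7 cholesterol synthesis genes none had an unadjusted p under 0.05, with Nsdhl at 0.17 and Fdft1 at -0.11, and the fatty acid synthesis list included Fads1 at 0.11. Among glycolytic genes Aldoa was at 0.46 and Hk1 at -0.21. Autophagy and AMPK genes were represented by Map1lc3a (0.19) and Prkag2 (-0.08). Of 9 chromatin modifiers none had an unadjusted p under 0.05, with Hdac5 at -0.34 and Kdm6a at -0.19. The glutamate receptor gene Grin2c was at -0.42, and the GABA genes included Gad1 (0.17) and Gabra2 (-0.18). Of the secretory genes, 1 of 2 identifiers named Pcsk1n was at -0.49 and the other at 0.15, Scg2 was at -0.39, and Vegfb at -0.47. Immediate early genes had a median of 0.18 over 11, with Egr2 at 0.42 and Btg2 at 0.99, and Btg2 was at -0.69, and the list median near 0, without CR pool 13. Many of these values moved with single pools: with 1 left out, Hdac5 ran from -0.48 to -0.17, Kdm6a from -0.38 to -0.01, Map1lc3a from 0.03 to 0.38, Igfbp7 from -0.44 to -0.10, Scg2 from -0.70 to -0.19 and Egr2 from 0.17 to 0.62.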

How the data were processed

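RNA from cortices of 2 rats per pool was depleted of ribosomal RNA by the authors and sequenced as 75-bp forward reads on a SOLiD 5500xl instrument. They mapped reads with Bowtie (-e 400, up to 2 mismatches, no multiply mapping reads) to Rnor_5.0, Ensembl release 71, and counted them with HTSeq-count. The values deposited by the authors are raw counts per gene. Dropping multiply mapping reads lowers counts of genes with near-identical copies.

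Of 26123 genes, the 17230 that reached 1 CPM in 3 or more of 39 libraries were tested. The 6 libraries were compared with edgeR 4.0.16 (R 4.3.3; TMM, glmQLFit and glmQLFTest) and Benjamini-Hochberg adjustment, the 28-month groups likewise, and the interaction over 12 libraries. SE is the log2 fold change divided by the square root of F. DESeq2 1.42.0 was an alternative. The functions were tested on simulated data. Shares were compared by exact permutation. Named genes were those past the threshold, the 12 named genes per direction with smallest p and pools apart, and list members past the threshold or, failing those, the 2 with smallest p, of which some are not reported here; others named, such as Cirbp, Gfap and the unnamed identifiers, were chosen after their values were seen. Comparison, lists and rules were chosen with earlier results of these data known. Promoter windows are from RefSeq (GRCr8).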

Additional observations from a re-analysis of the deposited data

Results flagged for a closer look

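The difference in Rn28s between the CR and AL+LA libraries itself differed between the ages: CR minus AL+LA changed by 3.39 ± 0.41 (log2, SE) from 12 to 28 months (adjusted p = 4.76e-05, edgeR interaction term, 12 libraries). The same interaction passed in 15 genes, Rn28s and 14 identifiers that followed it. Rn28s was 8.25-fold higher in AL+LA at 12 months, and at 28 months its log2 fold change was 0.35, or -0.07 without 28 m AL+LA pool 34. Groups of 3 pools are too small to be screened for single outlying samples. Pools of 1 group spanned 2199 to 36000 CPM of Rn28s in 6 m CR and 8533 to 34794 CPM in 28 m AL+LA, and diet was not separated from ribosomal RNA left after depletion.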

How the results depend on the processing

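Rescaling by RLE kept all 44 genes called at 12 months. The count was 111 with no filter on low counts, 9 with ribosomal RNA and mitochondrially encoded genes left out and 38 to 49 with 1 pool left out. It was 10 with all 13 groups in one fit. Adding Rn28s as a covariate to that fit of 13 groups (an alternative chosen after seeing the data) took it from 10 to 0. At 28 months the count of 0 became 57 with no filter, 2 with DESeq2 and 0 to 3 with 1 pool left out. The interaction count of 15 became 9 with RLE, 75 with no filter, 9 with at least 10 counts in every library, 7 with DESeq2 and 7 to 28 with 1 pool left out: 28 without 28 m CR pool 17, 27 without 12 m CR pool 13 or 28 m AL+LA pool 36, 7 without 28 m CR pool 18, and 8 without 12 m CR pools 14 or 15 or any 12 m AL+LA pool. The cause of these shifts was not tested. No paired analysis was possible because the groups share no replicate number. Of 1003 values recomputed for 63 genes, 988 kept their direction. With the Rn28s covariate it reversed for Ndufa13 (0.13), Ccdc47 (0.015), Cox7a2l2 (-0.027), Pcsk1n (0.069), Scg2 (0.33), Btg2 (-0.47), Ifi44 (0.19), Kdm6a (0.029), Fads1 (-0.033), Pdp1 (0.10) and Slc16a7 (-0.12). With 1 pool left out, the log2 fold change ran from -0.69 to 1.66 for Btg2, -0.21 to 0.022 for Pdp1, -0.0035 to 0.32 for Slc16a7 and -0.14 to 0.027 for Prkag2, and at 28 months from -0.068 to 0.65 for Rn28s, -0.11 to 0.26 for Chchd10, -0.23 to 0.44 for Ndufa13 and -0.27 to 0.049 for Asrgl1. Depth limits low genes: 1 CPM is 3 to 5 reads in these libraries.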

Other observations

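Rbm3 was also measured in groups that enter no comparison above, at 6 months and, at 28 months, in rats moved between diets. All values are means ± SD of 3 pools and were not tested. Rats on CR had 80.6 ± 11.6 CPM at 6 months, and those that ended on CR after AL or AL+LA feeding had 103 ± 2.53 and 100 ± 12.3 CPM at 28 months. Rats moved from CR to AL had 57.6 ± 9.42 CPM, and rats moved from CR to AL+LA or to CR+LA had 70.8 ± 19.9 and 71.9 ± 10.7 CPM. Plain AL pools had 53.2 ± 7.08 CPM at 6 months and 96.1 ± 19.6 CPM at 28 months, where the 3 pools, at 81.5 to 118 CPM, overlapped the 28 m CR pools.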
